A study of Mus musculus with 24 samples.

Results

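Expanded potential stem cells (EPSCs) of the L type (L-EPSCs) were compared with embryonic stem cells (ESCs) of the same mouse line, J1, by poly(A) RNA-seq. The comparison rests on the 2 libraries labelled L-EPSC and the 2 labelled ESC, which are 4 of the 24 libraries of the study and were chosen by their labels alone. The J1 ESCs were cultured in DMEM with 15% FBS, LIF at 1000 units per ml, and 2 inhibitors, CHIR99021 at 3 µM against GSK3 and PD0325901 at 1 µM against MEK. The L-EPSC medium was DMEM/F12 with 20% KSR, and it held the same LIF, CHIR99021 and PD0325901 at the same doses, plus A-419259 at 0.3 µM against Src-family kinases, XAV939 at 5 µM against tankyrase, JNK inhibitor VIII at 4 µM and SB203580 at 10 µM against p38. Serum, basal medium and 4 inhibitors therefore changed together, and their parts in a difference cannot be told apart.

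The 2 J1 D-EPSC libraries (N2B27 with 5% KSR, LIF at 1000 units per ml, CHIR99021 at 3 µM, dimethindene maleate at 2 µM, minocycline at 2 µM and no PD0325901) and 12 libraries of 3 tet-off lines served only for reference. Those lines (ZHBTc4 for Oct4-cKO, 2TS22C for Sox2-cKO and NgcKO for Nanog-cKO) lack the endogenous factor and carry a doxycycline (Dox) repressible transgene in its place, and their ESCs and L-EPSCs without Dox were read here, 2 libraries of each per line. The medium of the tet-off ESCs is not given by their labels. The labels allow culture of J1 cells on inactivated mouse embryonic fibroblast feeders or on gelatin, and the study's methods state that EPSCs were kept off feeders before RNA was taken. J1 is a single line, and no source used here says whether replicates were separate cultures, so p-values measure only the spread between these libraries.

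Naive pluripotency is held by a network around Oct4 (Pou5f1), Sox2 and Nanog, with LIF acting through STAT3, GSK3 inhibition releasing Wnt target genes, and MEK inhibition blocking ERK signalling from FGF4. As cells leave the naive state for the formative state, naive factors such as Tfcp2l1, Klf2, Tbx3 and Prdm14 decline while Otx2, Dnmt3a and Dnmt3l rise. ERK activity is usually read from its immediate targets (Egr1, Etv4) and from the feedback inhibitors it induces, the Sprouty, Spred and dual-specificity phosphatase genes.

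Values are normalised counts (reads per gene divided by the size factor of the library), given as library 1 and library 2 of a group. The 6 J1 libraries held 11612919 to 15069899 reads on genes, so 1 normalised count stands for about 1 read. Differences are L-EPSC minus ESC on log2(value + 1), with the standard error of limma's fit and a p adjusted over all 21533 genes tested. A number in parentheses after a gene is this log2 difference, with its standard error after the ± sign. Genes are called higher or lower where the difference passes 0.6 in size at an adjusted p under 0.05. With 2 libraries against 2, no permutation test of a single gene can go below p = 0.333.

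All 7 defining ESC markers were present in both groups. Pou5f1 had 11628 and 11833 normalised counts in the ESC libraries and 11416 and 11643 in the L-EPSC libraries, Sox2 had 4753 and 4837 against 5388 and 5147, and Zfp42 (Rex1) had 9548 and 9435 against 8215 and 8256. The log2 differences of these 3 were -0.02 ± 0.02, 0.14 ± 0.03 and -0.20 ± 0.02, none of them called. Among the other markers, Nanog was called lower and Utf1 higher, and Esrrb was not called (values are given with the naive and formative genes). The labels place PD0325901 in both media, but Egr1, Spry4, Dusp6 and other targets of the ERK pathway that it blocks were near 0 or low in the libraries labelled ESC and high in those labelled L-EPSC, so this part of the labelled culture was not mirrored in the transcripts (values are given with the ERK genes). The labels likewise place XAV939, which promotes beta-catenin breakdown, in the L-EPSC medium and not in the D-EPSC medium, but the Wnt targets Axin2, Cdx1 and Sp5 were low or near 0 in the libraries labelled D-EPSC and kept in full or in part in those labelled L-EPSC. Whether media or libraries were exchanged was not tested, and no sample was regrouped. L-EPSC and D-EPSC therefore stand for the libraries so labelled in every value that follows.

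Markers of other cell types were present in these libraries too, in amounts that moved with the groups. The 25 fibroblast markers summed to 142900 and 145900 normalised counts in the ESC libraries, 36150 and 36730 in the L-EPSC libraries and 91390 and 91550 in the D-EPSC libraries, against 1362 to 2000 in the tet-off ESCs and 999 to 1586 in the tet-off L-EPSCs. The 28 macrophage markers summed to 7825 and 7885 in ESCs, 25710 and 25840 in L-EPSCs and 34120 and 34540 in D-EPSCs, against 2117 to 3239 in the tet-off ESCs and 685 to 1141 in the tet-off L-EPSCs. Of the 25 fibroblast and 28 macrophage markers, 23 and 23 were tested in the tet-off table. No fibroblast marker was at 0 reads in either group, and of the macrophage markers Lyz1 alone was, in ESCs. Their part in the differences that follow was not tested, and in bulk RNA fewer cells of a type cannot be told from less RNA per cell. Levels of the tet-off lines come from a table that was normalised separately, and they serve below to show whether a gene is expressed in cultures with few fibroblast and macrophage transcripts.

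In all, 1895 genes (8.80% of those tested) were called higher and 2485 (11.5%) lower in L-EPSCs, while the median difference of all genes tested was 0.00. The called genes differed by a median of 1.33 on the log2 scale among those higher and -1.40 among those lower, and 1221 and 1678 of them passed a log2 difference of 1. Both L-EPSC values lay beyond both ESC values for every called gene, as they did for 13958 of the 21533 genes tested. Leaving out the genes of the fibroblast, macrophage and collagen lists left 1871 higher and 2463 lower. These lists hold only 25, 28 and 21 tested genes, so the counts could move little whatever the part of other cells. Of all genes tested in J1 with a row in the tet-off table, 5103 of 21074 stayed under 10 normalised counts in each of the 12 tet-off libraries. Of the called genes, smaller shares did so, 172 of 1869 higher (9.2%) and 350 of 2457 lower (14.2%). Among well-expressed genes (a J1 mean of at least 100), 28 of 908 called higher and 30 of 1340 called lower did so, against 95 of 10205 (0.931%) of all such genes.

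**Figure D1:**
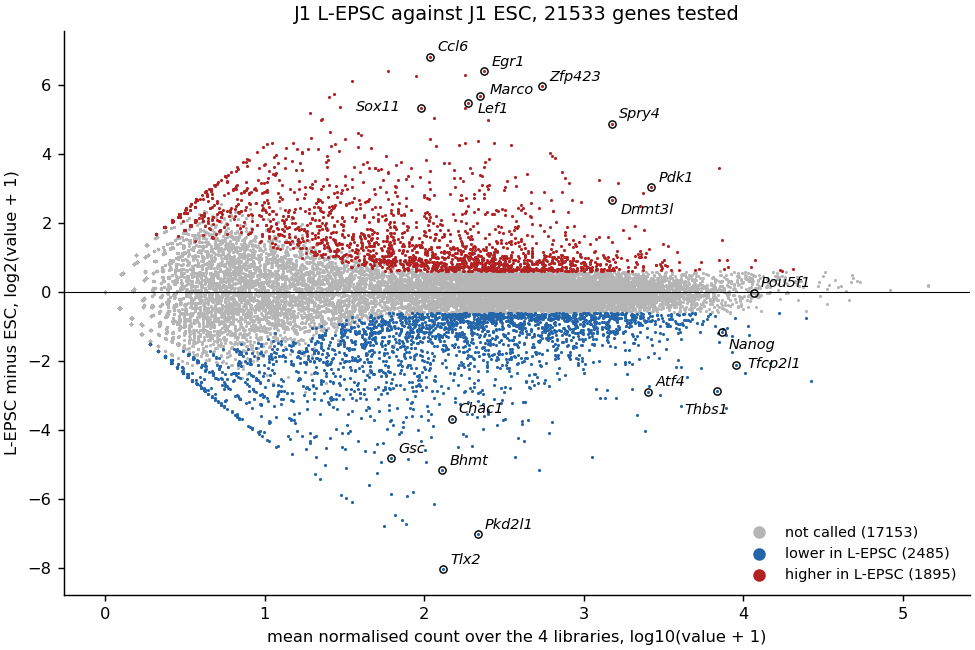
Each point is 1 of the 21533 genes tested, with the mean normalised count over the 4 libraries on a log10 scale on the x axis and the L-EPSC minus ESC difference on log2(value + 1) on the y axis. Red marks the 1895 genes called higher in L-EPSC, blue the 2485 called lower and grey the rest, and Pou5f1 lies near 0 while Egr1, Zfp423 and Spry4 lie far above and Pkd2l1 and Tlx2 far below.

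The genes with the largest increases mixed a transcription and signalling group with macrophage genes. Egr1, an immediate early transcription factor of the ERK pathway, had 4.49 and 4.61 normalised counts in the ESC libraries and 466 and 468 in the L-EPSC libraries (log2 difference 6.40 ± 0.17 (SE), adjusted p = 1.78e-07). Zfp423, a zinc finger transcription factor (chromosome 8, 90185709 to 90483494 on NCBIM37), rose from 14.4 and 18.4 in ESCs to 1061 and 1094 in L-EPSCs (5.96 ± 0.12, adjusted p = 4.26e-08). Lef1, a transcription factor of the Wnt pathway (chromosome 3, 130813389 to 130927274), rose from 6.29 and 8.30 in ESCs to 356 and 382 in L-EPSCs (5.49 ± 0.19, adjusted p = 5.06e-07). The ERK feedback inhibitor Spry4 rose from 94.4 and 101 in ESCs to 2872 and 2931 in L-EPSCs (4.88 ± 0.06, adjusted p = 4.11e-09). In all 4 of these genes both L-EPSC libraries lay far above both ESC libraries, and the D-EPSC libraries also stood above ESCs, at 136 and 135 for Egr1, 947 and 962 for Zfp423, 144 and 156 for Lef1 and 1800.3 and 1661 for Spry4.

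Others of this group encode membrane proteins and enzymes. Slc13a3, a sodium-coupled dicarboxylate transporter, rose from 2.70 and 4.61 in ESCs to 322 and 383 in L-EPSCs (6.27 ± 0.23, adjusted p = 6.59e-07), and Cntfr, the ligand-binding subunit of the ciliary neurotrophic factor receptor, rose from 10.8 and 18.4 in ESCs to 479 and 485 in L-EPSCs (5.00 ± 0.22, adjusted p = 1.7e-06). Enpp3, an ectonucleotidase, rose from 32.4 and 19.4 in ESCs to 524 and 507 in L-EPSCs (4.31 ± 0.20, adjusted p = 2.05e-06). Rapgef5, an exchange factor for Rap GTPases, and Igsf9, an immunoglobulin superfamily protein, rose by 5.04 and 4.37 on the log2 scale. The remaining 3 of the 12 largest increases were the macrophage genes Ccl6, Marco and Fcgr3. Slc13a3 reached at most 12.1 normalised counts in any tet-off library, and Marco at most 3.47, so neither was expressed at its J1 L-EPSC level there.

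The largest decreases were of genes with plain expression in the ESC libraries that were nearly silent in the L-EPSC libraries. Tlx2, a homeobox gene (chromosome 6, 83018311 to 83020287), had 268 and 254 in ESCs and no read in either L-EPSC library, which makes it at least 75.6-fold lower (from a floor of 3 reads per library). Pkd2l1, a cation channel of the polycystin family (chromosome 19, 44222127 to 44266932), fell from 416 and 439.9 in ESCs to 4.11 and 1.15 in L-EPSCs (-7.02 ± 0.54, adjusted p = 3.01e-05). Trpm1, also a cation channel, fell from 219 and 232 to 2.06 and 2.30, and Bhmt, which remethylates homocysteine with betaine, fell from 259 and 241 in ESCs to 5.14 and 6.90 in L-EPSCs (-5.17 ± 0.56, adjusted p = 0.000189). Each of these 4 was also below 10 in both D-EPSC libraries. In any tet-off library Tlx2 reached at most 15.5, Pkd2l1 208, Trpm1 98.9 and Bhmt 750, so only Bhmt reached its J1 ESC level there.

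Calcoco2, an autophagy receptor, fell from 2207 and 2120.2 in ESCs to 87.4 and 69.0 in L-EPSCs (-4.78 ± 0.12, adjusted p = 1.3e-07). Npr3, the clearance receptor for natriuretic peptides, fell from 708 and 721 in ESCs to 28.8 and 21.8 in L-EPSCs, Nefm, a neurofilament subunit, fell from 798 and 799.6 in ESCs to 44.2 and 34.5 in L-EPSCs, and Parm1 fell from 1010.1 and 1033 in ESCs to 22.6 and 33.3 in L-EPSCs. Slc16a9, a transporter of the monocarboxylate family, fell by 4.92 on the log2 scale, but lost its call when ESC library 1 was left out (-4.87). H2-Q6, a non-classical MHC class I gene, fell by 4.45, with reads that its near-identical neighbours could share. The phospholipase Pla2g4e (-4.50) and the transcript C130074G19Rik (-4.22) fell too. Adjusted p-values of these genes lay at or below 0.000228. In the tet-off libraries Calcoco2, Parm1, Slc16a9 and Pla2g4e reached their J1 ESC levels, with at most 2627, 1898, 309 and 464. Npr3, Nefm, C130074G19Rik and H2-Q6 did not, with at most 269, 221, 282 and 39.7.

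The lists are shown by the median difference of their members, beside the median of 0.00 over all genes tested and the background shares of 8.80% called higher and 11.5% called lower. Germline, macrophage, formative and ERK lists had the highest medians, and fibroblast, ATF4, SRF and naive lists the lowest.

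**Figure D2:**
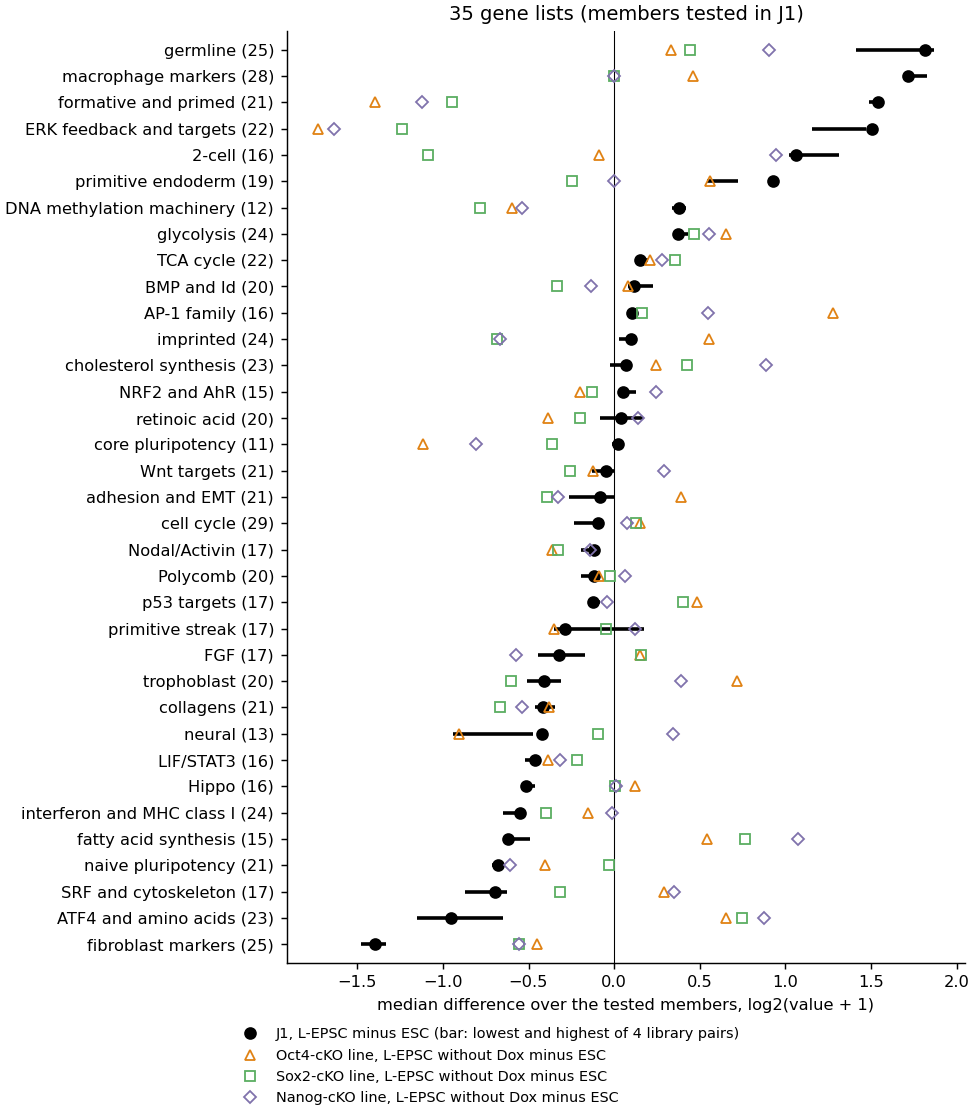
Each row is 1 of 35 gene lists with the number of members tested, and the x axis is the median L-EPSC minus ESC difference on log2(value + 1). Black points are J1 with a bar from the lowest to the highest median over the 4 library pairs, and open symbols are the Oct4-cKO, Sox2-cKO and Nanog-cKO tet-off lines, in which the ERK list lies at -1.73, -1.24 and -1.64 against 1.51 in J1.

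The naive network was partly lowered while Oct4 and Sox2 were not called. Of the 21 naive genes tested, 11 were called lower and 2 higher, with a median of -0.68. Nanog, which stabilises self-renewal, had 10085 and 10129.7 normalised counts in the ESC libraries and 4615 and 4363 in the L-EPSC libraries (log2 difference -1.17 ± 0.03 (SE), adjusted p = 1.53e-07). Tfcp2l1, a LIF-STAT3 target that sustains naive self-renewal, fell from 14748 and 14588 in ESCs to 3484 and 3325 in L-EPSCs (-2.11 ± 0.03, adjusted p = 9.75e-09). The T-box factor Tbx3 fell from 4261 and 4206 in ESCs to 1219 and 1240.0 in L-EPSCs (-1.78), and Prdm14, a repressor of ERK signalling and of DNA methylation genes, fell from 817 and 875 in ESCs to 246 and 244 in L-EPSCs (-1.78). These 4 genes separated the groups without overlap, as did every called gene and 13958 of the 21533 genes tested. In D-EPSCs Nanog (2787 and 2801) and Tfcp2l1 (1353 and 1328) were lower again, and Tbx3 (1208 and 1079) and Prdm14 (231 and 251) were close to their L-EPSC values.

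Klf2 and Klf4, Krüppel-like factors of the naive circuit, fell by 1.15 and 0.84 on the log2 scale, and Fgf4, the main ligand that drives ERK in ESCs, fell from 2582 and 2578 in ESCs to 1260.4 and 1268 in L-EPSCs (-1.03 ± 0.04, adjusted p = 1.29e-06). Esrrb, an orphan nuclear receptor downstream of GSK3 inhibition, had 9809 and 9954 against 6544 and 6521 and a difference of -0.60 ± 0.02, just inside the threshold and not called. Nr5a2, with -0.37 ± 0.06, and Klf5, with -0.26 ± 0.05, also were not called. Gbx2, a homeobox gene that supports self-renewal downstream of STAT3, went the other way, from 222 and 200.1 in ESCs to 1000.3 and 1148 in L-EPSCs (2.34 ± 0.08, adjusted p = 5.93e-07), as did the chromatin protein Dppa4 (1.60). On the core list 2 of 11 were higher, Zmym2 (0.74) among them, and 2 lower, Nanog and Foxd3 (-1.76), with a median of 0.02. Naive genes were also well expressed in the tet-off ESCs, where the fibroblast sum was at most 2000, with 6882 to 15127 for Nanog and 7395 to 9518 for Tfcp2l1. The Nanog range includes the Nanog-cKO line, which carries a Nanog transgene in place of the endogenous gene.

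The LIF-STAT3 list, which holds Tfcp2l1, Klf4 and Gbx2 too, had 6 of 16 members lower and 2 higher. Socs3, the feedback inhibitor that STAT3 induces, fell from 1843 and 1893 in ESCs to 931 and 999 in L-EPSCs (-0.95 ± 0.05, adjusted p = 3.13e-06), and Il6st, the gp130 receptor subunit through which LIF signals, fell from 2276 and 2356 in ESCs to 1313 and 1299 in L-EPSCs (-0.83 ± 0.04, adjusted p = 1.45e-06). Bcl3 fell by 1.38 and Sgk1, a serum-inducible kinase, by 1.17. The receptor Lifr (-0.21 ± 0.05) and Stat3 itself (-0.46 ± 0.03) were not called.

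Formative and primed genes went up as a group. Of 21 tested, 14 were called higher and 1 lower, with a median of 1.54. Otx2, the transcription factor that opens the formative state, had 117 and 106 normalised counts in the ESC libraries and 541 and 517 in the L-EPSC libraries (log2 difference 2.24 ± 0.08 (SE), adjusted p = 6.7e-07). Lin28a, an RNA-binding inhibitor of let-7 maturation, rose from 659 and 691 in ESCs to 3687 and 3914 in L-EPSCs (2.49 ± 0.04, adjusted p = 2.7e-08), and its paralogue Lin28b rose from 239 and 271 in ESCs to 930.4 and 814 in L-EPSCs (1.77). Utf1 rose from 1042 and 1088 in ESCs to 3746 and 3616 in L-EPSCs (1.79) and the SoxC factor Sox11 from 2.70 and 4.61 in ESCs to 192 and 176 in L-EPSCs (5.34). None of these values overlapped between the groups, which holds for every called gene and for 13958 of the 21533 genes tested.

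Sox3 had 1 read in all in the ESC libraries and 48.3 and 64.4 normalised counts in L-EPSCs, a ratio of 123 (95% counting interval 21.6 to 4897). Fgf5, the classical marker of primed epiblast, was not part of this rise, with 2.70 and 1.84 normalised counts in ESCs against 3.08 and 2.30 in L-EPSCs, at most 3 reads in each library. Zic2 (-0.17 ± 0.07), Dnmt3b (0.26 ± 0.05) and Etv5 (-0.08 ± 0.03) were not called, and Igfbp3 fell by 1.11, a gene whose largest value in any tet-off library was 192 against 936 and 840.1 in J1 ESCs.

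DNA methylation genes moved in both directions. Of 12 tested, 4 were higher and 2 lower, and the median was 0.38. Dnmt3l, the catalytically inactive partner of the de novo methyltransferases, had 397 and 412 normalised counts in the ESC libraries and 2606 and 2572 in the L-EPSC libraries (log2 difference 2.67 ± 0.04 (SE), adjusted p = 1.24e-08). The de novo enzyme Dnmt3a rose from 888 and 857 in ESCs to 3253 and 3351 in L-EPSCs (1.92 ± 0.04, adjusted p = 2.77e-08), and Uhrf2 and Mettl4 rose by 0.89 and 0.83. Uhrf1, which recruits Dnmt1 to hemimethylated DNA, fell from 11249.9 and 10948 in ESCs to 6596 and 6515 in L-EPSCs (-0.76 ± 0.03, adjusted p = 5.31e-07), and the dioxygenase Tet2 fell from 4357 and 4341 in ESCs to 2455 and 2615 in L-EPSCs (-0.78). Dnmt1 (-0.15 ± 0.02), Dnmt3b and Tet1 (0.50 ± 0.02) were not called.

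Genes of the germline had the highest median of the lists, 1.81, with 16 of 25 called higher and 1 lower. Most belong to the piRNA pathway and meiosis and are usually silenced by DNA methylation in somatic cells. Dmrt1, a transcription factor of the gonad, had 64.7 and 67.3 normalised counts in the ESC libraries and 645 and 689.5 in the L-EPSC libraries (log2 difference 3.32 ± 0.11 (SE), adjusted p = 4.61e-07). Piwil2, a PIWI protein, rose from 27.0 and 32.3 in ESCs to 293 and 308 in L-EPSCs (3.30 ± 0.14, adjusted p = 1.48e-06), its helicase partner Mov10l1 rose from 32.4 and 24.0 in ESCs to 203 and 199 in L-EPSCs (2.80), and the Tudor protein Tdrkh rose from 8.99 and 4.61 in ESCs to 83.3 and 94.2 in L-EPSCs (3.58). Ddx4 (Vasa), a germ cell helicase, rose from 48.5 and 35.0 in ESCs to 214 and 175 in L-EPSCs (2.20).

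Dazl, a germ cell RNA-binding protein, had 145 and 155 against 139.8 and 168 and was not called (0.03 ± 0.13). Tdrd1 and Slc25a31 had 1 and 2 reads in all in the ESC libraries, and their ratios were 38.2 (95% counting interval 6.37 to 1553) and 26.8 (95% counting interval 7.01 to 228). The ribosomal protein retrogene Rpl10l was the 1 member called lower (-0.76). Germ cell genes outside this list rose too. Stra8, the meiotic gate gene that answers to retinoic acid, is on the retinoic acid list. It rose from 31.5 and 21.2 in ESCs to 133 and 141 in L-EPSCs (2.36 ± 0.23, adjusted p = 0.00011). Sohlh2, a bHLH factor of germ cells, rose from 17.1 and 15.7 in ESCs to 316 and 371 in L-EPSCs (4.31 ± 0.13, adjusted p = 3.18e-07).

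ERK feedback and target genes rose, with the same dose of MEK inhibitor in both media by the labels. Of 22 tested, 15 were called higher and none lower (0 of 22 by limma, edgeR and DESeq2 alike, and 1 at an unadjusted p under 0.05), and the median was 1.51, or 1.24 when genes at the floor are placed at their bound. Dusp6, the ERK-specific phosphatase that ERK itself induces, had 73.7 and 80.2 normalised counts in the ESC libraries and 1210.0 and 1168 in the L-EPSC libraries (log2 difference 3.93 ± 0.07 (SE), adjusted p = 2.95e-08). Etv4, an ETS factor of FGF-ERK signalling, rose from 302 and 357 in ESCs to 2977 and 2948 in L-EPSCs (3.17 ± 0.09, adjusted p = 1.91e-07), Spred1 rose from 337 and 392 in ESCs to 1344 and 1386 in L-EPSCs (1.91), and Dusp4 rose from 64.7 and 70.1 in ESCs to 357 and 318 in L-EPSCs (2.31). Myc rose from 196 and 247 in ESCs to 843 and 837 in L-EPSCs (1.93 ± 0.12, adjusted p = 1.01e-05).

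Etv5 (-0.08 ± 0.03), Ccnd1 (0.00 ± 0.04) and Spred2 (0.23 ± 0.05) were not called. Spry2, Spry1 and Dusp5 rose by 0.92, 1.67 and 1.76. Egr3 had no read in either ESC library and 1.03 and 6.90 in L-EPSCs, and it was not called. Compared with D-EPSCs, whose medium holds no MEK inhibitor, the L-EPSC libraries were higher still for Egr1 (log2 difference L-EPSC minus D-EPSC 1.78 ± 0.17, adjusted p = 0.000188), Spry4 (0.75 ± 0.06, adjusted p = 8.24e-05), Dusp6 (0.66 ± 0.07, adjusted p = 0.000372) and Etv4 (2.99 ± 0.09, adjusted p = 5.77e-07). Between L-EPSCs and D-EPSCs, 4.80% of all genes tested were called higher in L-EPSCs and 8.58% lower. These 4 genes thus stood higher in the cells labelled as grown with PD0325901 than in those labelled as grown without it. Others went the other way, with 149 and 108 for Fos in D-EPSCs against 51.4 and 50.6 in L-EPSCs (L-EPSC minus D-EPSC -1.30 ± 0.23, adjusted p = 0.00428) and 1351 and 1366 against 971 and 899.9 for Spry2 (-0.54 ± 0.06, adjusted p = 0.000254). The median of L-EPSC minus D-EPSC over the list was 0.36.

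**Figure D3:**
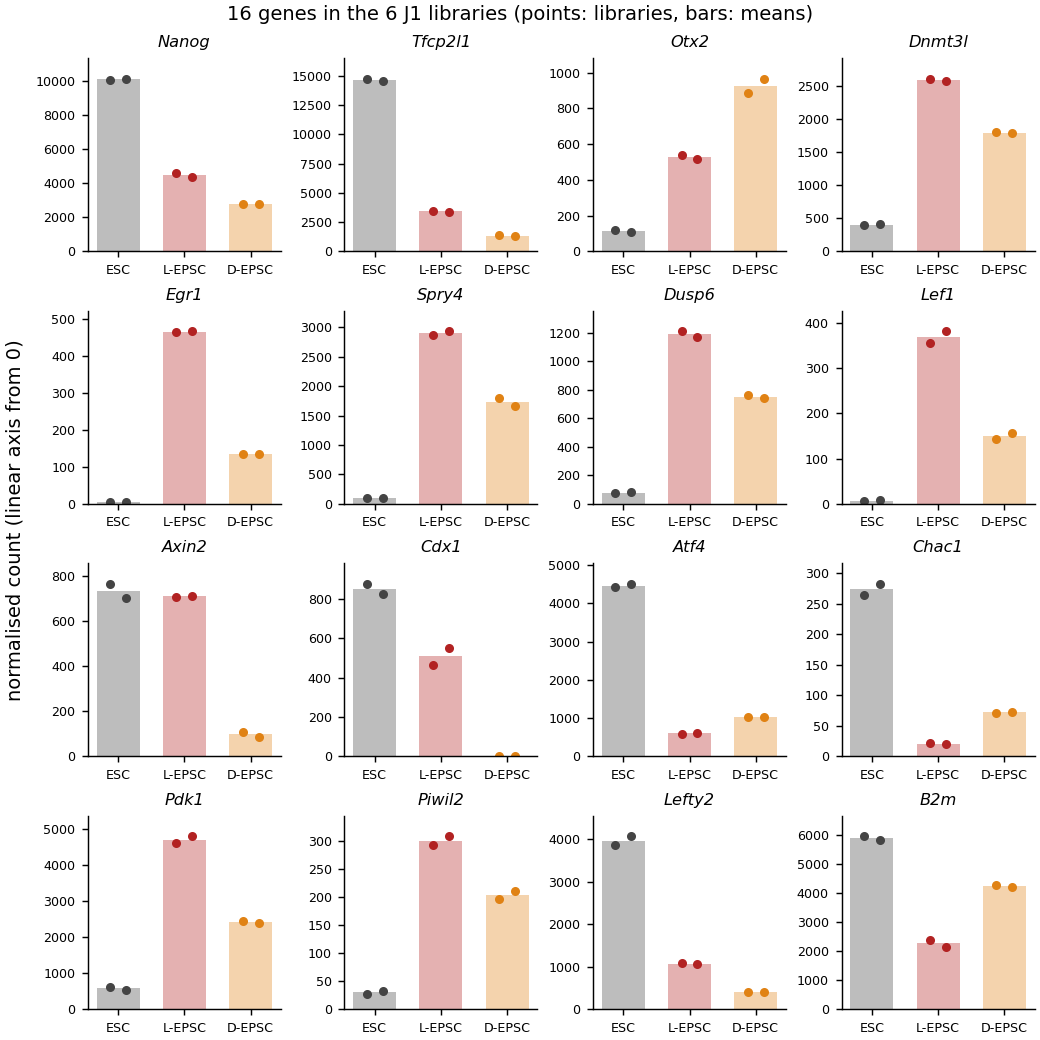
Normalised counts of 16 genes in the 6 J1 libraries, on linear axes that start at 0, with points for libraries and bars for the mean of 2. Nanog, Tfcp2l1, Atf4, Chac1, Lefty2 and B2m were below ESC level in both EPSC groups, Otx2, Dnmt3l, Egr1, Spry4, Dusp6, Lef1, Pdk1 and Piwil2 were above it, and Axin2 stayed at ESC level in L-EPSC and fell in D-EPSC.

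Wnt target genes had a median near 0, with XAV939 in the L-EPSC medium by the labels. Of 21 tested, 4 rose and 6 fell (median -0.05). Axin2, the standard feedback target of beta-catenin, had 767 and 706 normalised counts in the ESC libraries and 708 and 714 in the L-EPSC libraries (-0.05 ± 0.11, adjusted p = 0.764), while the D-EPSC libraries had 109 and 88.1 (L-EPSC minus D-EPSC 2.84 ± 0.11, adjusted p = 1.72e-06). The homeobox gene Cdx1 had 875 and 822 in ESCs, 464 and 552 in L-EPSCs and 1.02 and 1.96 in D-EPSCs, and Sp5 had 120.4 and 115, 45.2 and 48.3 and 1.02 and 0 in the same order. Against ESCs both were called lower (-0.74 and -1.32) and were near 0 in D-EPSCs only.

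Single members changed more. Fzd7, a Wnt receptor, rose from 342 and 320.0 in ESCs to 1235 and 1222 in L-EPSCs (1.89), and T (Brachyury), a Wnt target of the primitive streak, rose from 11.7 and 13.8 in ESCs to 105 and 96.5 in L-EPSCs (2.89 ± 0.41, adjusted p = 0.000809). Tcf7l1 (Tcf3), the repressive TCF of naive cells, fell from 1974 and 2067 in ESCs to 797 and 855 in L-EPSCs (-1.29 ± 0.05, adjusted p = 6.43e-07), and Notum, a secreted Wnt inhibitor, fell from 1204 and 1344 in ESCs to 433 and 429 in L-EPSCs (-1.56). Lgr5, an R-spondin receptor, had 91.7 and 102 in ESCs and 3 reads in all in L-EPSCs, an ESC to L-EPSC ratio of 59.5 (95% counting interval 20.1 to 291). Lgr5 reached at most 2.09 in any tet-off library.

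Genes of the Nodal and BMP pathways changed in both directions. On the Nodal/Activin list 5 of 17 were lower and 3 higher. Lefty2, a Nodal antagonist induced by SMAD2/3, had 3875 and 4071 normalised counts in the ESC libraries and 1076 and 1062 in the L-EPSC libraries (log2 difference -1.89 ± 0.04 (SE), adjusted p = 8.68e-08), the ligand Nodal fell by 0.62 and the effector Smad3 fell from 589.5 and 510.0 in ESCs to 254 and 233 in L-EPSCs (-1.17). The other feedback inhibitors Lefty1 (-0.27 ± 0.13) and Smad7 (-0.08 ± 0.04) were not called, and Skil, a SMAD corepressor, rose (0.65). On the BMP list 5 of 20 were higher and 4 lower. Id1, a helix-loop-helix target of SMAD1/5, rose from 92.6 and 76.5 in ESCs to 349 and 334 in L-EPSCs (2.01 ± 0.13, adjusted p = 1.05e-05), and the ligand Bmp4 rose from 297 and 289.6 in ESCs to 912 and 887 in L-EPSCs (1.61 ± 0.08, adjusted p = 2.86e-06). Id4 (-2.26) and the BMP modulators Bmper (-1.24) and Smad6 (-0.71) fell, and the receptors Bmpr1a (0.07 ± 0.06) and Bmpr2 (0.02 ± 0.07) were not called.

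The FGF family also changed in both directions, 6 of 17 higher and 5 lower. Fgf17 rose from 9.88 and 15.7 in ESCs to 192 and 188 in L-EPSCs (3.83) and Fgf13 from 25.2 and 19.4 in ESCs to 138 and 122 in L-EPSCs (2.50), whereas Fgf10 fell from 225 and 192 in ESCs to 49.3 and 48.3 in L-EPSCs (-2.07) and Fgf3 from 80.9 and 80.2 in ESCs to 13.4 and 16.1 in L-EPSCs (-2.38). The main receptor Fgfr1 had 3436 and 3398 against 2332 and 2506 (-0.50 ± 0.04, not called).

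Retinoic acid genes split evenly, 7 of 20 in each direction. The binding protein Crabp1 (2.34) and the receptors Rarg (1.10) and Rara (0.95) rose, Rarg from 1361 and 1433 in ESCs to 2983 and 2995 in L-EPSCs. Cyp26a1, the retinoic acid hydroxylase that retinoic acid induces, had no read in ESCs and 14.4 and 17.2 in L-EPSCs, at least 5.72-fold higher. Rarb (-1.93), a direct retinoic acid target, Crabp2 (-1.70), and Dhrs3 (-1.37) fell. Known retinoic acid targets were therefore among the genes on both sides.

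Lineage genes changed one by one. In the primitive streak list 4 of 17 rose and 5 fell. Eomes, a T-box factor of streak and trophoblast, rose from 146 and 124 in ESCs to 453 and 446 in L-EPSCs (1.73 ± 0.15, adjusted p = 6.74e-05) and Mesp2 rose from 3.59 and 9.22 in ESCs to 26.7 and 44.8 in L-EPSCs (2.38), while the organiser gene Gsc fell from 109.6 and 124 in ESCs to 7.20 and 1.15 in L-EPSCs (-4.81 ± 0.71, adjusted p = 0.00105). The list's median turned from -0.29 to 0.35 when L-EPSC library 1 was left out, so no direction is given for the list. Nkx1-2 had 551 and 552, 471 and 432 and, in D-EPSCs, 11.2 and 13.7.

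Among primitive endoderm genes 6 of 19 rose and 2 fell. Gata4 rose from 3.59 and 8.30 in ESCs to 55.5 and 55.2 in L-EPSCs (3.11 ± 0.50, adjusted p = 0.00177), Hnf4a from 3.59 and 7.38 in ESCs to 29.8 and 36.8 in L-EPSCs (2.46) and the endocytic receptor Cubn from 12.6 and 8.30 in ESCs to 104 and 80.4 in L-EPSCs (3.04), while Gata6, with 17.1 and 24.9 and 45.2 and 35.6, was not called (0.93 ± 0.37). The 2 that fell, Sparc (-1.73) and Lamc1 (-1.05), encode matrix proteins that fibroblasts also make. Of 20 trophoblast genes 6 rose and 6 fell. Peg10, needed for placenta formation, rose by 2.85, Cdh3 by 1.67 and Krt18 by 0.82, and Esx1 (1.77) and Eomes rose as well. Hand1, also called higher, had 3 reads in all in ESCs and 18 in L-EPSCs. Among those that fell, Tfap2a fell from 628 and 640.0 in ESCs to 104 and 149 in L-EPSCs (-2.34), Gata2 from 56.6 and 53.5 in ESCs to 6.17 and 8.04 in L-EPSCs (-2.80) and Krt8 from 594 and 575 in ESCs to 98.7 and 117 in L-EPSCs (-2.43), and Tead4, which sets up trophectoderm, fell from 734 and 753 in ESCs to 218 and 192 in L-EPSCs (-1.86 ± 0.12, adjusted p = 1.42e-05). Cdx2 had 25.2 and 27.7 against 10.3 and 9.19 and was not called (-1.35 ± 0.61). Gata3 had 3 reads in all in L-EPSCs, with an ESC to L-EPSC ratio of 35.2 (95% counting interval 11.8 to 173).

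Neural genes had 4 of 13 lower and 1 higher, and 5 of the 13 were at the floor in both groups. Nes (nestin) fell from 1059 and 1036 in ESCs to 294 and 251 in L-EPSCs (-1.94) and the Notch target Hes1 fell from 696 and 722 in ESCs to 237 and 259 in L-EPSCs (-1.51). The 2-cell list had 5 of 16 higher and 1 lower, with 7 at the floor in both groups. Zscan4c, a marker of the transient 2-cell-like state, had no read in ESCs and 15.4 and 11.5 in L-EPSCs, at least 4.86-fold higher, and Zscan4f was at least 3.43-fold higher. Zscan4 genes are near-identical copies, so the split of reads between them is uncertain. The homeobox gene Obox6 was the 1 member that fell, from 44.9 and 69.2 in ESCs to 7.20 and 11.5 in L-EPSCs (-2.49).

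Imprinted genes gave a few very large changes, 5 of 24 in each direction. Phlda2, expressed from the maternal allele and known for limiting placental growth, had 13.5 and 17.5 normalised counts in the ESC libraries and 329 and 292 in the L-EPSC libraries (log2 difference 4.25 ± 0.22 (SE), adjusted p = 3.74e-06), and the paternally expressed Peg10 rose from 557 and 588 in ESCs to 4241 and 4055 in L-EPSCs (2.85 ± 0.04, adjusted p = 1.25e-08). Plagl1 fell from 3178 and 3024 in ESCs to 614 and 583 in L-EPSCs (-2.37 ± 0.06, adjusted p = 1.3e-07), and the neighbours H19 and Igf2 fell together, H19 from 3458 and 3611 in ESCs to 886 and 965 in L-EPSCs (-1.93) and Igf2 from 1547 and 1405 in ESCs to 343 and 363 in L-EPSCs (-2.06). Meg3 (-0.10 ± 0.04), Peg3 (0.12 ± 0.07) and Igf2r (-0.14 ± 0.04) were not called. Fibroblasts express H19 and Igf2 too, and both were also present in the tet-off libraries, up to 15469 and 1995.

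Genes that answer to amino acid shortage through the transcription factor ATF4 were lower. Of 23 tested, 15 were called lower and 2 higher, with a median of -0.95. Atf4 itself had 4421 and 4512 normalised counts in the ESC libraries and 577 and 623 in the L-EPSC libraries (log2 difference -2.90 ± 0.05 (SE), adjusted p = 1.56e-08). Chac1, a glutathione-degrading enzyme, fell from 264 and 282 in ESCs to 21.6 and 19.5 in L-EPSCs (-3.67 ± 0.17, adjusted p = 2.13e-06), Nupr1 fell from 1061 and 1041 in ESCs to 159 and 155 in L-EPSCs (-2.73), Trib3, a pseudokinase that feeds back on ATF4, fell from 758 and 884 in ESCs to 157 and 157 in L-EPSCs (-2.37), and Ddit3 (CHOP) fell from 502 and 475 in ESCs to 108 and 101 in L-EPSCs (-2.21). The ESC and L-EPSC values were far apart for all of them, and D-EPSCs lay between or near L-EPSCs, with 1026 and 1025 for Atf4 and 71.5 and 72.4 for Chac1.

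Biosynthetic enzymes of the list fell less. Asns (asparagine synthetase) fell from 7375 and 7277 in ESCs to 3281 and 3318 in L-EPSCs (-1.15), Pycr1, which makes proline, fell from 784 and 753 in ESCs to 269 and 288 in L-EPSCs (-1.46), and Psat1 of the serine pathway fell by 0.65 on the log2 scale. The first enzyme of that pathway, Phgdh, rose instead, from 1032 and 1011 in ESCs to 2219.6 and 2099.7 in L-EPSCs (1.08 ± 0.04, adjusted p = 7.66e-07), as did the cystine transporter Slc7a11, from 57.5 and 48.9 in ESCs to 175 and 151 in L-EPSCs (1.60 ± 0.23, adjusted p = 0.000867). The amino acid transporters Slc7a5 (-0.49 ± 0.03) and Slc3a2 (-0.26 ± 0.03) were not called.

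Promoter sequences of 20 of the tested members were found in RefSeq's table for GRCm38.p6, each from 250 bases before to 50 bases after the start site. They were searched on both strands for TGATGNAA, the core of the CCAAT-enhancer binding protein and ATF4 response element (N is any base). The motif stood in 6 of the 20 (30.0%) and in 5 of the 14 that were called lower (35.7%), against 1096 of 27025 promoters in the table (4.06%), 335 of 13689 promoters of genes tested (2.45%), 25 of 1358 of genes called higher (1.84%) and 59 of 1774 of genes called lower (3.33%). These are counts of letters in a window and not of bound sites. The list was made of genes known to answer through ATF4, so its share above that of other promoters is no result about L-EPSC culture. The 6 promoters that hold the motif are shown, 5 of members that fell and that of Slc7a11, which rose. Capitals mark the match, which appears as its reverse complement when it lies on the other strand.
They lie on GRCm38.p6 at chr2:119350992-119351291, plus strand (Chac1), chr7:126625421-126625720, minus strand (Nupr1), chr2:152344011-152344310, minus strand (Trib3), chr11:120643699-120643998, minus strand (Pycr1), chr6:7693160-7693459, minus strand (Asns) and chr3:50443564-50443863, minus strand (Slc7a11).
Chac1: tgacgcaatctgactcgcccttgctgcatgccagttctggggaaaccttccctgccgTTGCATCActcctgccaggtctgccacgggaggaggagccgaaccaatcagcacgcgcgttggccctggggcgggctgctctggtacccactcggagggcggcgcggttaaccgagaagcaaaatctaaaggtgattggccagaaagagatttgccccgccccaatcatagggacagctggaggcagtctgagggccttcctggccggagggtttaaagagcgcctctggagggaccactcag
Nupr1: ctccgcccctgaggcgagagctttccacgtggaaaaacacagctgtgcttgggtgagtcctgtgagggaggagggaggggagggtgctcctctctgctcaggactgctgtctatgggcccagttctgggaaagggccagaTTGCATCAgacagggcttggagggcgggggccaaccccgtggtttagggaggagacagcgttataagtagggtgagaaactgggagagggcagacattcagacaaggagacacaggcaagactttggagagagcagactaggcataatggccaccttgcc
Trib3: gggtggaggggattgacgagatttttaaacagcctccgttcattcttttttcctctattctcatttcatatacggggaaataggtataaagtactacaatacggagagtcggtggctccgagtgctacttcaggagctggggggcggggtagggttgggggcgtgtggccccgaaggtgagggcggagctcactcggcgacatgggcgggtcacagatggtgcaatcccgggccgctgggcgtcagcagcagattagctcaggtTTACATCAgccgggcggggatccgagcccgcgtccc
Pycr1: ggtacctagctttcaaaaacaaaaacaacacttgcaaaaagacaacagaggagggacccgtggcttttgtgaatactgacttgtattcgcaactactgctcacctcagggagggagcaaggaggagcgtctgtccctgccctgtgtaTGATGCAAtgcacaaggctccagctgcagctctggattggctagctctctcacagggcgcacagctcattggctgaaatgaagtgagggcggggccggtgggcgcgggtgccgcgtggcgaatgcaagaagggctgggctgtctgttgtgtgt
Asns: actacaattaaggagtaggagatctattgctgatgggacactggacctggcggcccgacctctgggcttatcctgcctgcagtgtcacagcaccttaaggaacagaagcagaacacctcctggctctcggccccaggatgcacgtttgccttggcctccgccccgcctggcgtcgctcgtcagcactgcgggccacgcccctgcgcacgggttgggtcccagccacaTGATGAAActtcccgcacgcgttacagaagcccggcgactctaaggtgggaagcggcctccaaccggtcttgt
Slc7a11: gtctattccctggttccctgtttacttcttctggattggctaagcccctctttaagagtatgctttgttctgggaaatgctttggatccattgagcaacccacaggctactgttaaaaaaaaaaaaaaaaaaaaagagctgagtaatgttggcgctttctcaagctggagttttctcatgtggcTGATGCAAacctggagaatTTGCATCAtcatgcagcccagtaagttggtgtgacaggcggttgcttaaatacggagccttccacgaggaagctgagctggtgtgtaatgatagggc
Chac1, Nupr1, Trib3, Pycr1 and Asns carry 1 match each and had log2 differences of -3.67, -2.73, -2.37, -1.46 and -1.15. Slc7a11 carries 2 matches and rose by 1.60, so the motif in this window did not go with a single direction.

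Lipid genes fell in part. For fatty acid synthesis 7 of 15 were lower and none was higher (0 of 15 by limma, edgeR and DESeq2, and 0 at an unadjusted p under 0.05), with a median of -0.62. The desaturase Scd1 had 9693 and 9569 normalised counts in the ESC libraries and 4126 and 4369 in the L-EPSC libraries (log2 difference -1.18 ± 0.04 (SE), adjusted p = 4.03e-07), its paralogue Scd2 fell from 30977 and 31224 in ESCs to 18292 and 18396 in L-EPSCs (-0.76), malic enzyme Me1 fell from 1922 and 1903 in ESCs to 884 and 921 in L-EPSCs (-1.08) and fatty acid synthase Fasn fell from 20288 and 20429 in ESCs to 13348 and 13098 in L-EPSCs (-0.62). Srebf1, the transcription factor of this pathway, fell by 0.65, and the carboxylase Acaca (-0.06 ± 0.04) was not called. Cholesterol synthesis changed little, with 1 of 23 higher, 1 lower and a median of 0.07. Against D-EPSCs, the medians of L-EPSC minus D-EPSC for fatty acid and cholesterol genes were 0.61 and 1.02.

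Glycolysis genes rose in part, 8 of 24 higher and 3 lower with a median of 0.37. Pdk1, the kinase that holds pyruvate back from the mitochondrion, had 613 and 529 normalised counts in the ESC libraries and 4603 and 4790.1 in the L-EPSC libraries (log2 difference 3.04 ± 0.07 (SE), adjusted p = 6.07e-08). The glucose transporter Slc2a1 rose from 2389 and 2322 in ESCs to 5277 and 5272 in L-EPSCs (1.16), lactate dehydrogenase Ldha from 8127 and 8155 in ESCs to 15187 and 15656 in L-EPSCs (0.92) and phosphofructokinase Pfkl from 1527 and 1532 in ESCs to 3346 and 3358 in L-EPSCs (1.13). Hexokinase 1 (Hk1) fell from 2484 and 2401 in ESCs to 1196 and 1289 in L-EPSCs (-0.98), and Gapdh (0.14 ± 0.01) and Aldoa (-0.02 ± 0.02) were not called. Of 22 genes of the TCA cycle 1 was lower (Idh2, -0.70) and none higher by limma, edgeR or DESeq2, with a median of 0.15 and 12 higher at an unadjusted p under 0.05.

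Most cell cycle genes were not called, and Polycomb genes changed in part. In the cell cycle list 26 of 29 were not called, with Cdkn1a (p21) lower (-0.74), Mcm3 lower (-0.64) and Cdkn1c higher (1.09). Of 20 Polycomb genes 1 rose, the PRC2 accessory factor Phf19 (2.67), and 4 fell, among them Cbx8 (-2.18), Pcgf1 (-0.74) and Bmi1 (-0.67) of PRC1, while Ezh2 (0.16 ± 0.04), Eed (0.05 ± 0.04) and Rnf2 (0.10 ± 0.04) were not called. Of 17 p53 targets 13 were not called, with Pmaip1 (Noxa) higher, from 145 and 172 in ESCs to 576 and 592 in L-EPSCs (1.88). Of 15 genes of oxidative and aryl hydrocarbon responses 2 rose and 5 fell. Tiparp rose from 487 and 492 in ESCs to 1336 and 1219 in L-EPSCs (1.38), and Cyp1b1 fell from 659.6 and 676 in ESCs to 188 and 208 in L-EPSCs (-1.75), a gene that did not pass 14.1 in the tet-off libraries. The AP-1 family had 4 of 16 in each direction, with Maff higher (1.89) and Gadd45b (-1.53) and Fosl2 (-1.52) lower.

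The SRF list, which shares genes with the fibroblast list, and the Hippo list both had negative medians. The SRF list, contractile and cytoskeletal genes driven by serum response factor, had 9 of 17 lower and none higher by limma, edgeR or DESeq2 (2 at an unadjusted p under 0.05), with a median of -0.70. Its largest rise was 0.52, under the threshold of 0.6. Acta2, smooth muscle actin, fell from 2859 and 2993 in ESCs to 692 and 691 in L-EPSCs (-2.08 ± 0.04, adjusted p = 4.78e-08) and Tagln from 1089 and 1056 in ESCs to 407 and 379 in L-EPSCs (-1.45), and both are also on the fibroblast list, with at most 23.4 and 73.7 in the tet-off libraries. Ubiquitous members, with -0.23 ± 0.02 for Actb and -0.45 ± 0.05 for Vcl, were not called. The Hippo list had 6 of 16 lower, among them the YAP targets Ccn2 (from 869.9 and 836 in ESCs to 341 and 346 in L-EPSCs, -1.31), Ccn1 (-1.01) and Amotl2 (-1.51), while Yap1 was not called (-0.21 ± 0.03). The adhesion list, apart from these, had a median near 0 (-0.08), with 7 of 21 lower and 4 higher. E-cadherin (Cdh1) fell from 7461 and 7507 in ESCs to 4307 and 4458 in L-EPSCs (-0.77 ± 0.03, adjusted p = 4.73e-07). The tight junction gene Cldn4 fell from 677 and 599 in ESCs to 68.9 and 65.5 in L-EPSCs (-3.23), and P-cadherin (Cdh3) rose (1.67).

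Interferon and MHC class I genes were lower in 11 of 24 and higher in none by limma, edgeR or DESeq2 (4 at an unadjusted p under 0.05), with a median of -0.55. The largest rise on the list was 0.59, under the threshold of 0.6. B2m, the light chain of MHC class I, had 5944 and 5832 normalised counts in the ESC libraries and 2385 and 2150.2 in the L-EPSC libraries (log2 difference -1.38 ± 0.05 (SE), adjusted p = 4.43e-07), and the heavy chains H2-D1 and H2-K1 fell by 1.66 and 1.55, with reads that related class I genes could share. Irf7 fell from 2021 and 1987 in ESCs to 778 and 864 in L-EPSCs (-1.29) and Ifit1 from 1047 and 1005 in ESCs to 565 and 613 in L-EPSCs (-0.80). The highest value in any tet-off library was 431 for B2m, 20.4 for Irf7 and 2.09 for Ifit1, and 6 of the 24 genes stayed under 10 in all 12. In D-EPSCs the list's median against ESCs was 0.52.

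Collagen and other fibroblast genes had the lowest median, -1.40, with 17 of 25 lower and 1 higher. Col1a1, the main chain of type I collagen, had 44565 and 46016 normalised counts in the ESC libraries and 7277 and 7721 in the L-EPSC libraries (log2 difference -2.59 ± 0.03 (SE), adjusted p = 3.41e-09), Col3a1 fell from 17158 and 17301 in ESCs to 3352 and 3406 in L-EPSCs (-2.35 ± 0.02, adjusted p = 8.15e-10), and the matrix glycoprotein Thbs1 fell from 11901 and 12046 in ESCs to 1634 and 1647 in L-EPSCs (-2.87 ± 0.03, adjusted p = 2.37e-09). The D-EPSC libraries had 19651 and 20021 for Col1a1 and 16452 and 16452 for Col3a1. In the tet-off libraries Col1a1 reached at most 122 and Col3a1 2.04, so J1 ESCs and J1 L-EPSCs both held these transcripts far above cultures of the other lines. The genes did not fall by one factor. Col6a1 (-0.10 ± 0.04), Col6a2 (-0.27 ± 0.07) and Dcn (-0.02 ± 0.05) were not called, Col6a3 stood at 0.51 ± 0.03, and S100a4 rose by 0.72.

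Among 21 collagens, 10 were lower and 3 higher. Basement membrane chains that ESCs and endoderm make, Col4a1 (0.38 ± 0.03) and Col4a2 (0.19 ± 0.06), were not called, while Col18a1 rose from 2058 and 2076 in ESCs to 3592 and 3579.9 in L-EPSCs (0.79) and was also expressed in the tet-off lines (up to 6908). Fibrillar and associated chains carried the fall, Col12a1 from 5341 and 5267 in ESCs to 702 and 646 in L-EPSCs (-2.98) and Col5a2 from 7291 and 7721 in ESCs to 1328 and 1412 in L-EPSCs (-2.45).

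Macrophage genes went the other way, 20 of 28 higher and none lower by limma, edgeR or DESeq2 (2 at an unadjusted p under 0.05), with a median of 1.71. Lyz2, the lysozyme of macrophages, had 1085 and 1068 normalised counts in the ESC libraries and 13018 and 12965 in the L-EPSC libraries (log2 difference 3.59 ± 0.02 (SE), adjusted p = 2.17e-10), the complement component C1qa rose from 99.7 and 121 in ESCs to 796 and 856 in L-EPSCs (2.90 ± 0.10, adjusted p = 5.13e-07), and Adgre1 (F4/80) rose from 152 and 117 in ESCs to 752 and 846 in L-EPSCs (2.57 ± 0.12, adjusted p = 2.09e-06). Ccl6, a chemokine, had 2 reads in all in the ESC libraries and 207 and 221 in L-EPSCs, a ratio of 234 (95% counting interval 64.4 to 1941). The scavenger receptor Marco rose from 6.29 and 9.22 in ESCs to 456 and 421 in L-EPSCs (5.67) and the Fc receptor Fcgr3 from 7.19 and 8.30 in ESCs to 329 and 368 in L-EPSCs (5.32).

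Several defining genes of the lineage were not called or rose less. Ptprc (CD45) had 93.5 and 112 against 99.7 and 138 (0.20 ± 0.18), Spi1 (PU.1) had -0.27 ± 0.14, and Csf1r, the receptor macrophages depend on, rose from 111 and 150.3 in ESCs to 233 and 205 in L-EPSCs (0.75). In the tet-off table, 14 of the 23 macrophage genes tested stayed under 10 in all 12 libraries, Lyz2 among them with at most 1.73, and the D-EPSC libraries, with 15553 and 15802 for Lyz2, stood above the L-EPSC ones.

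**Figure D4:**
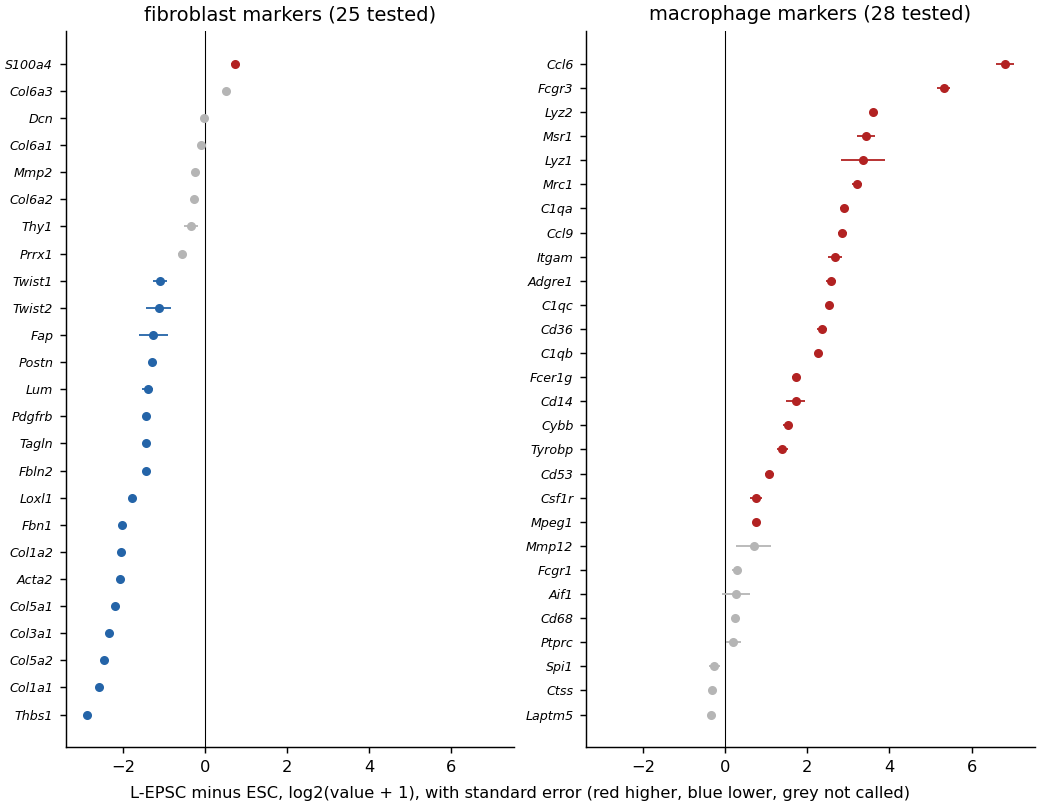
L-EPSC minus ESC difference on log2(value + 1) with its standard error for the 25 fibroblast markers (left) and the 28 macrophage markers (right), red for genes called higher, blue for lower and grey for neither. Fibroblast genes reach from -2.87 for Thbs1 to 0.72 for S100a4, and macrophage genes from -0.36 for Laptm5 to 6.81 for Ccl6.

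The tet-off libraries carried the same pair of labels, ESC and L-EPSC, on other genetic backgrounds, with an ESC medium that is not given. There, the mean of the 3 lines had 11.6% of 24007 genes called higher and 17.0% called lower in L-EPSCs, and 3.68% were called higher and 4.69% lower in every line. Over 20812 genes tested in both tables, 80 were higher in J1 and in every line (4.3% of the J1 genes, 9.17% of the tet-off genes), and 168 were lower in both (6.88% and 15%). Of all genes tested in J1, 8.80% were called higher and 11.5% lower. The 9.17% of tet-off higher genes that were also higher in J1 was thus near the background share. Called in opposite directions were 241 higher in J1 and lower in every line (13% and 21.5%) and 215 lower in J1 and higher in every line (8.81% and 24.7%). Across 14062 genes with a mean of at least 10, Pearson's r between the J1 difference and the tet-off mean was -0.136, with -0.145, -0.197 and -0.0313 for the Oct4-cKO, Sox2-cKO and Nanog-cKO lines, as a description over genes, which share libraries and are not independent.

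**Figure D5:**
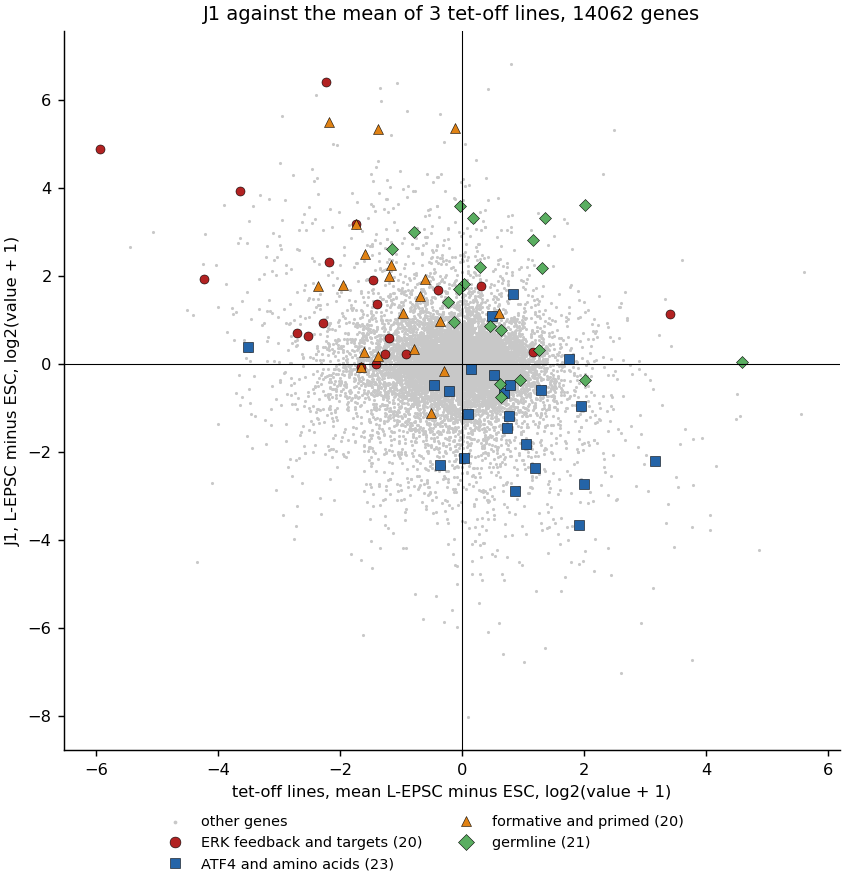
Each point is 1 of 14062 genes with a J1 mean of at least 10, with the mean L-EPSC minus ESC difference of the 3 tet-off lines on the x axis and the J1 difference on the y axis, both on log2(value + 1). Of the coloured genes, 16 of 20 ERK and 16 of 20 formative genes lie in the upper left (higher in J1, lower in the tet-off lines) and 16 of 23 ATF4 genes in the lower right.

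The ERK, formative, DNA methylation, ATF4 and fatty acid lists had medians of opposite sign in J1 and in the tet-off lines. On the tet-off mean the ERK list had 2 of 22 higher and 16 lower (median -1.44), the formative list 1 of 21 higher and 16 lower (-1.21), the ATF4 list 13 of 23 higher and 1 lower (0.76) and the fatty acid list 9 of 15 higher and 1 lower (0.72). The germline list had 14 of 25 higher and 3 lower (0.62), but of its 21 members with a mean of at least 10, 6 were higher in J1 and lower on the tet-off mean and 4 the reverse. Mael and Tdrd5 rose in J1 (2.62 and 2.99) against -1.16 ± 0.07 and -0.80 ± 0.14 on the tet-off mean, and Dazl, not called in J1, had 4.58 ± 0.06 there. Glycolysis had 13 of 24 higher and 1 lower (0.65). Spry4 had 908 to 3051 in the 6 tet-off ESC libraries and 20.2 to 38.7 in the 6 tet-off L-EPSC libraries (log2 differences of -6.40, -4.74 and -6.71 in the Oct4-, Sox2- and Nanog-cKO lines), against a rise of 4.88 in J1. Dusp6 likewise fell in each line, with differences of -3.31, -3.22 and -4.41. The J1 ESC value of Spry4 lay below every tet-off ESC value, so the ESCs differed as well as the changes. Otx2 was 87.4 to 888 in tet-off ESCs and 22.4 to 545 in tet-off L-EPSCs. Atf4 was 1025 to 1854 and 2099.5 to 3089.9, below the J1 ESC values in each tet-off ESC library, and Scd1 was 874 to 1278 in tet-off ESCs and 3678 to 4706 in tet-off L-EPSCs.

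Among genes with a symbol, a call in J1 and a J1 mean of at least 100, 33 of 898 higher and 119 of 1332 lower moved alike in every line. Of all genes tested in the tet-off table, 3.68% were called higher and 4.69% lower in every line. Without that minimum, 9.17% of the tet-off higher genes were also higher in J1, near the background of 8.80%. Of the tet-off lower genes 15% were also lower in J1, against a background of 11.5%. The genes that follow are named one by one and not as a shared set of changes. The 8 with the largest J1 rise were Sohlh2 (4.31), the villin-like gene Vill (3.36), Dmrt1 (3.32), Prelid2 (2.25), Mipol1 (1.79), the mitophagy receptor Bnip3 (1.75), the sugar phosphate enzyme Pgm1 (1.26) and Got1l1 (1.23). In J1, Bnip3 went from 349.6 and 344 in ESCs to 1174 and 1163 in L-EPSCs, and it was 754 to 944 in the tet-off ESCs against 2329.7 to 3799.7 in the tet-off L-EPSCs. Got1l1 lost its call when either ESC library was left out (1.32 and 1.14).

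The 8 with the largest J1 fall were Pla2g4e, the giant muscle protein gene Ttn, Zfp607b, Sh2d4b, Epp13, the epithelial splicing regulator Esrp2, the interleukin-6 receptor Il6ra and Rnd1. Pla2g4e had 299 and 321 in J1 ESCs and 8.22 and 19.5 in J1 L-EPSCs (-4.50 ± 0.48, adjusted p = 0.000177), with 15.6 to 464 and 0.887 to 4.99 in the tet-off lines. Ttn fell from 2448 and 2413 in ESCs to 288 and 293 in L-EPSCs (-3.06), with line differences of -2.22, -1.56 and -3.21. The other 6 fell by 2.08 to 2.62 in J1. The number of genes shared by J1 and every line was smaller when 1 J1 library was left out, 43 and 51 higher without ESC library 1 or 2, 43 and 44 without L-EPSC library 1 or 2, and 102 lower without ESC library 2, where 1 library then stood for its group.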

How the data were processed

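Poly(A) RNA of 24 mouse libraries was sequenced by the authors as paired reads, trimmed with TrimGalore 0.6.4, mapped to NCBIM37 with STAR 2.7.9a and counted per gene with htseq 0.11.2. The strand setting is not given in the sources used here, so overlapping and antisense genes cannot be told apart. The deposited values are a signal, the read count of a gene divided by the DESeq2 size factor of its library, in 1 table for J1 and another, normalised separately, for the tet-off lines. Whole reads were recovered from the steps of the values (all values whole within a tolerance of 0.05 reads). The J1 libraries held 11612919 to 15069899 reads on genes and the tet-off libraries 10807631 to 14798984.

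Genes with at least 2 reads (21533 of 23095 listed in J1) were tested with limma 3.58.1 in R 4.3.3 on log2(value + 1), with a trend on mean expression, all groups of a table in 1 fit and Benjamini-Hochberg adjustment. The log2 difference understates the change of low genes. Intervals and floors (3 reads per library) cover counting error only. The lists and the genes named were chosen with earlier results of these data known. Genes named for size were the 12 largest rises and the 12 largest falls of called genes that had a mean of at least 100 and whose libraries did not overlap, and the 8 largest each way among those also called in every tet-off line. Other genes were named as list members, by the size of the change or as genes that define the list, and the remaining members after their values were seen. Libraries with the same number did not deviate together (r = 0.00647 between ESC and L-EPSC), so no pairing was used. Scripts were tested on simulated counts. Alternatives were TMM scaling, median centring, filters on low values, a pseudocount of 0.1, the 2 groups alone, a replicate block, edgeR 4.0.16 and DESeq2 1.42.0 on the recovered reads, a threshold of 1, and each library left out. Libraries with Dox were not compared here. A few list members are not reported here.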

Additional observations from a re-analysis of the deposited data

Results flagged for a closer look

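Several results had opposite signs in J1 and in every tet-off line. For the single genes, each L-EPSC library lay on one side of the ESC libraries in J1 and on the other in each tet-off line. For the lists, only the sign of the median in each line was read. These differences between lines were not tested, and the medium of the tet-off ESCs is not given. Among single genes, Egr1 rose by 6.40 on the log2 scale in J1, against -2.71, -2.74 and -1.24 in the Oct4-, Sox2- and Nanog-cKO lines. Zfp423 (5.96), Lef1 (5.49), Spry4 (4.88), Igsf9 (4.37) and Enpp3 (4.31) rose in J1 as well and were lower in the L-EPSCs of each line, with -1.62, -0.85 and -1.55 for Zfp423, -1.97, -2.92 and -1.65 for Lef1, -1.06, -1.44 and -0.57 for Igsf9 and -1.30, -1.94 and -1.23 for Enpp3. Pkd2l1 (-7.02) and Bhmt (-5.17) fell in J1 and were higher in each line, with 1.79, 3.55 and 2.46 and 1.48, 2.15 and 1.23.

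Among the lists, the J1 medians were 1.51 for ERK feedback, 1.54 for formative genes and 0.381 for the DNA methylation machinery, all negative in each line, and -0.95 for ATF4 genes and -0.623 for fatty acid synthesis, both positive in each line.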

How the results depend on the processing

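The 1895 higher and 2485 lower genes of J1 stayed within 1.5 times under TMM scaling, median centring, both filters on low values, a pseudocount of 0.1, edgeR and DESeq2, and with the 2 groups compared alone (1598 and 2201). At a threshold of 1 the higher genes numbered 1221, the tet-off mean had 1484 higher and 2572 lower genes, and J1 and every line shared 32 higher and 57 lower. With the replicate block the counts were 1845 higher and 2412 lower in J1, 2796 and 4073 for the tet-off mean, and 79 and 171 shared. Same-numbered libraries share only a number. Leaving out 1 library gave 1424 to 1569 higher and 1932 to 2067 lower genes in J1, 2682 to 2762 higher and 3789 to 3937 lower for the tet-off mean, and 43 to 82 higher and 102 to 163 lower shared. Genes called higher in J1 that stayed under 20 in every tet-off library, in place of 10, numbered 272. Over the alternatives, 504 values of the 39 genes named for size kept their direction and call and 3 lost the call, those given with Slc16a9 (-4.87) and Got1l1 (1.32 and 1.14). Of the list medians, 406 moved by less than the spread between library pairs and 49 by more. Near 0 the sign turned for AP-1 (-0.11) and retinoic acid (-0.02) with a mean of at least 10, retinoic acid (-0.05) without L-EPSC library 2, Wnt (0.01) without ESC library 1, cholesterol (-0.01) without ESC library 2 and primitive streak (0.35) without L-EPSC library 1. The 2-cell median ran from 0.32 with a mean of at least 10 to 3.29 by edgeR, and the ERK median was 1.22 without L-EPSC library 2. The causes were not tested. With 2 libraries a group, genes at the floor in both groups were too shallow to show a difference.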
